A study of Mus musculus with 29 samples.

Results

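The respiratory chain and the ATP synthase of the inner mitochondrial membrane are built from 5 protein complexes, and the genes described here are those that encode their subunits in the nucleus. They were chosen by symbol alone: every probe set (the array's unit of measurement, a handful of probes that are read together) with a single gene symbol that begins with Nduf followed by a, b, c, s or v and a digit, is Sdha to Sdhd, begins with Uqcr, begins with Cox4 to Cox8 followed by a letter, or begins with Atp5. This gave 105 probe sets for 81 genes, and each gene was represented by the probe set with the highest mean over all arrays. The 81 genes are part of 35511 probe sets and of 19938 genes with a single symbol on the array. Complex I has 35 of them, complex II 4, complex III 8, complex IV 17 and complex V 17. A further 4 symbols (Cox7c, Ndufb4, Ndufb4b and Ndufs5-ps) match only through probe sets that list several genes and were left out.

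RNA had been taken from the most infiltrated part of the distal colon of female C57BL6J mice, 1 array per mouse, and the labels give an age of 6 weeks, which the methods describe as the age at the start. The study followed connective tissue changes over repeated colitis as a model of Crohn's disease. Colitis was induced with dextran sodium sulphate (DSS) in the drinking water. The acute colitis group (4 arrays, B2, B3, B4 and C3) received 7 days of DSS with no recovery, and the 1 cycle group (5 arrays, J1, J5, K1, K2 and K3) received 7 days of DSS and 2 weeks of normal water. That cycle was repeated for the 2 cycles group (5 arrays, D4, D5, E2, E3 and E4) and the 3 cycles group (5 arrays, F1, F3, F5, G2 and G3). The recovery group (5 arrays, M1, M3, M5, N2 and N3) had 2 cycles and 3 more weeks of normal water, and control mice (5 arrays, A1, A2, A5, L1 and L2) drank normal water throughout. The later courses used a higher DSS concentration than the first, so the number of cycles and the concentration cannot be told apart. All values are log2 expression values of the array, all differences are given as the DSS group minus control unless another pair is named, and a gene is called higher or lower where limma gave an adjusted p under 0.05.

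Complex I (NADH dehydrogenase) and complex II (succinate dehydrogenase, also an enzyme of the citrate cycle) feed electrons into the chain, complex III passes them to cytochrome c, and complex IV (cytochrome c oxidase) passes them to oxygen. The proton gradient built up on the way drives complex V, the ATP synthase. Complexes I, III, IV and V combine these nuclear-encoded subunits with a few encoded by mitochondrial DNA, whereas complex II is wholly nuclear. Colonocytes are known to depend on this pathway for oxidising butyrate from the gut bacteria, and smooth muscle and immune cells of the colon wall carry it as well. In bulk tissue, fewer cells of a type and less RNA per cell cannot be told apart.

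Nuclear respiratory factor 1 (NRF1) and the ETS factor GABPA are known regulators of respiratory chain genes, so the promoters were read for the letters GCGCANGCG (NRF1) and CCGGAAG (the ETS core) on both strands. RefSeq promoter windows of build GRCm38.p6, from 250 bases before to 50 after the gene start, matched 66 of the 81 genes. The NRF1 letters were present for 19 of these 66 genes (28.8%), against 7.03% of 27025 genes in the same table, and the ETS letters for 17 (25.8%), against 9.93%. Either was present for 30 genes (45.5%), against 15.5%. In the 250 bases before the start alone, the shares were 19.7% against 5.86% for NRF1 and 18.2% against 7.83% for ETS. By complex, the NRF1 letters were found for 7 of 31 genes of complex I, 2 of 3 of complex II, 2 of 5 of complex III, 1 of 12 of complex IV and 7 of 15 of complex V. A match is a description of the letters and not a binding site. The 5 promoters below belong to members on which the results turn: Cox7a1, lower in every DSS group, its common counterpart Cox7a2, Sdhd and Atp5k, higher in acute colitis, and Uqcrh, lower after 3 cycles and after recovery. Each run holds the 250 bases before the start, written 5′ to 3′ on the strand of the gene, with matches to either motif in capitals.
Cox7a1: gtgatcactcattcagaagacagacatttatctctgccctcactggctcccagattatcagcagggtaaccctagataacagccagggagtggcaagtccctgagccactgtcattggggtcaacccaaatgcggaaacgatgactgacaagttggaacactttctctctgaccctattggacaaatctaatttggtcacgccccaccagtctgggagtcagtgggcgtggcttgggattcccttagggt
Cox7a2: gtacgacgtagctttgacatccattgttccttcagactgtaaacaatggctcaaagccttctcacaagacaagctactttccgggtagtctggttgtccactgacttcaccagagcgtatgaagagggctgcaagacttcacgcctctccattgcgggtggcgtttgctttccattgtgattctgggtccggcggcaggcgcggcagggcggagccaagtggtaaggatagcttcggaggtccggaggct
Sdhd: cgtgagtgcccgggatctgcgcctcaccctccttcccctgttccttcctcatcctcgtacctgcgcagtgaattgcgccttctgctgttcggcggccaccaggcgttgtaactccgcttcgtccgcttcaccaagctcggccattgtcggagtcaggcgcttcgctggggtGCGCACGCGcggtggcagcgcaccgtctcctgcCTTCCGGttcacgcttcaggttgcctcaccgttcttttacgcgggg
Uqcrh: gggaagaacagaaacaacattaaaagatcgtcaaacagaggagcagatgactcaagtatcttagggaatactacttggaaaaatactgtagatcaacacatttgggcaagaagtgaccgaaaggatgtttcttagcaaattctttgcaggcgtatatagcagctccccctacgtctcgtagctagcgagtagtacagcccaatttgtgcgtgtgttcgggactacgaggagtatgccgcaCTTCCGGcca
Atp5k: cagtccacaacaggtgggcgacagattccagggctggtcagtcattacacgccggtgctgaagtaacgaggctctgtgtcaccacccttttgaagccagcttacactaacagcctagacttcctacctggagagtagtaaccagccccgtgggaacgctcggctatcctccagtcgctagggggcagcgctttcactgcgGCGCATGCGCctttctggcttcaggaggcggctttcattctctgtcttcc
The Cox7a1 run is chr7:30183921-30184170 on the plus strand, and the others lie on the minus strand: Cox7a2 at chr9:79759854-79760103, Sdhd at chr9:50603850-50604099, Uqcrh at chr4:116075071-116075320 and Atp5k at chr5:108434400-108434649. Cox7a1 and Cox7a2 had 0 matches to either motif in this run. The Cox7a2 run lies inside the annotated span of the gene (chr9:79755241-79771422). It stands before a start within that span, so the bases before the outer end were not read here. Sdhd had 1 NRF1 match 71 bases before the start and 1 ETS match 40 bases before it. Uqcrh had 1 ETS match 4 bases before its start, and Atp5k had 2 overlapping NRF1 matches, the nearer of them 41 bases away. Of the 12 members higher in acute colitis, 9 had a window and 7 of these held either motif. Of the 7 members lower in acute colitis, 4 had a window and 0 held either motif. Of the members lower after 3 cycles and after recovery, 4 of 9 and 4 of 12 with a window held either.

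Several measured features of the arrays stand beside the results. A probe set with no gene listed splits the arrays into 14 low (at most 8.14) and 15 high (at least 11.09). It was picked from all 35511 probe sets as the one with the widest gap that left at least 10 arrays on either side. The array set below thus rests on this single probe set, and whether others follow the same split was not tested. The high set holds 2 of 4 acute colitis arrays (B4 and C3), 0 of 5 after 1 cycle, 3 of 5 after 2 cycles (E2, E3 and E4), all 5 after 3 cycles, all 5 after recovery and 0 of 5 controls. For 3 cycles and recovery, the DSS group and the array set therefore cannot be told apart from these arrays by themselves. A fit with the set as a covariate borrows its effect from the other groups, and its values stand beside the results. All 7 smooth muscle markers were lower in acute colitis, and the mean of the list lay between 9.23 and 10.21 in acute colitis arrays, against 10.96 to 11.34 in control arrays. Neutrophil markers were higher in acute colitis for 6 of 7 genes, with list means of 6.12 to 9.21 in acute colitis arrays and 5.50 to 5.69 in control arrays. Absorptive colonocyte markers averaged 9.86 to 10.96 in acute colitis arrays and 11.12 to 11.35 in control arrays, with 4 of 9 lower and 1 higher. After 3 cycles the colonocyte mean was 10.14 to 11.20 and after recovery 10.51 to 11.08, with 3 of 9 markers lower in each, and every recovery array lay below every control array. All 5 plasma cell markers were higher after 1, 2 and 3 cycles and after recovery, and all 6 squamous epithelium markers were higher after recovery, with list means of 5.37 to 10.54 in recovery arrays and 5.45 to 5.59 in control arrays. The skeletal muscle list averaged 5.67 to 5.96 in acute colitis arrays and 5.73 to 5.98 in control arrays. The part of these shifts in the results for the subunit genes was not tested. The labelled tissue was borne out by goblet cell markers, whose list mean was between 11.34 and 12.72 in all arrays. The 5 comparisons against control share the 5 control arrays.

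Most subunit genes moved little, and the groups differed in direction. Acute colitis had nearly balanced calls with somewhat more genes higher, whereas the calls after 3 cycles and after recovery were nearly all lower. For each array, the median over the members of the log2 value minus the control mean of the gene described the whole set. It was 0.18, -0.06, -0.07 and 0.12 in acute colitis arrays B2, B3, B4 and C3, so that acute colitis arrays lay on both sides of the controls. After 1 cycle it ranged from -0.05 to 0.05, after 2 cycles from -0.18 to 0.02, after 3 cycles from -0.19 to 0.03 and after recovery from -0.17 to -0.04, against -0.04 to 0.02 in control arrays. All 5 recovery arrays were thus below every control array, narrowly in the case of N2. Array G3 was the lowest of the 3 cycles group and M1 the lowest of the recovery group. In the absorptive colonocyte list, G3 (10.14) and M1 (10.51) were also the lowest of their groups, as was B4 (9.86) in acute colitis, which had the lowest subunit median there. In the remaining groups the lowest arrays did not coincide. K1 had the lowest subunit median after 1 cycle, with a colonocyte mean of 10.98 in a range of 10.90 to 10.99. D4 had it after 2 cycles (10.64), where E3 was lower in colonocytes (10.59), and L2 had it among controls, at 11.32 in a range of 11.12 to 11.35. G3 and M1 also had the highest squamous list mean of their groups, 8.52 and 10.54. Whether these features play a part in the subunit values was not tested.

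**Figure D1:**
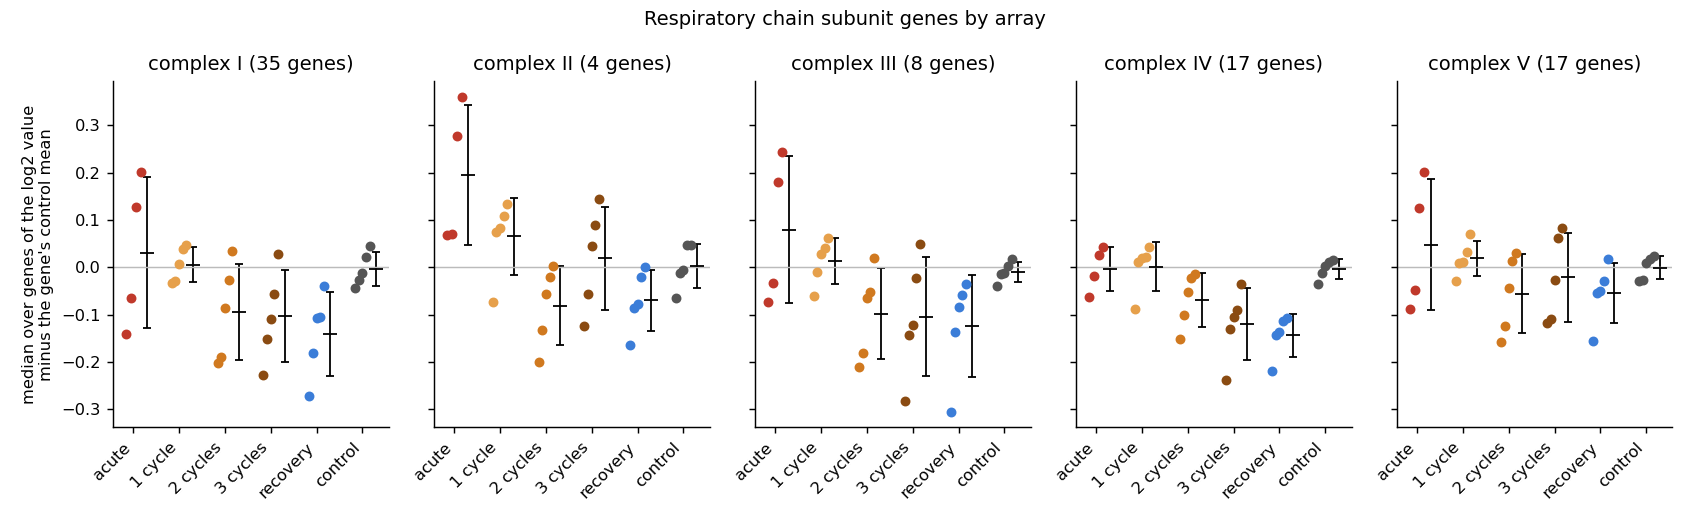
Each point is 1 array, and the y axis gives the median over the genes of a complex of the log2 value minus the control mean of the gene, with the mean and SD of each group beside it (4 acute colitis arrays, 5 in every other group). Complex II lies highest in acute colitis, at 0.07 to 0.36, and complex IV lies below every control array in all 5 recovery arrays, at -0.22 to -0.11.

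By complex, complex II had the highest differences in acute colitis, with array medians of 0.07 to 0.36 in acute colitis and -0.06 to 0.05 in control mice. Complex IV was the only complex whose recovery arrays (-0.22 to -0.11) and 3 cycles arrays (-0.24 to -0.03) both lay below every control array (-0.03 to 0.02), after 3 cycles by a narrow margin. The medians of the log2 differences in acute colitis were 0.02 for complex I, 0.21 for complex II, 0.09 for complex III, 0.02 for complex IV and 0.03 for complex V, beside 0.03 over all genes. After recovery they were -0.14, -0.07, -0.11, -0.16 and -0.04 in the same order, beside 0.00 over all genes. After 3 cycles they were -0.13, 0.03, -0.11, -0.09 and -0.03, beside 0.02 over all genes. These medians are descriptions and were not tested.

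In acute colitis, 12 of 81 genes were higher and 7 were lower, which is 14.8% and 8.64% of the members, beside 11.4% and 11.6% of all probe sets called higher and lower. After 1 cycle, 0 were higher and 1 lower, beside 3.4% and 3.54% of all probe sets, and after 2 cycles again 0 were higher and 1 lower, beside 3.08% and 2.51%. At an unadjusted p under 0.05, 5 were higher and 1 lower after 1 cycle, and 1 was higher and 12 were lower after 2 cycles. After 3 cycles, 1 gene was higher and 12 (14.8%) were lower, beside 8.81% and 9.26% of all probe sets. After recovery, 1 was higher and 15 (18.5%) were lower, beside 6.05% and 6.61%. Over all genes with 1 probe set each, 13% were higher and 15.4% lower in acute colitis, and 10.1% were lower after 3 cycles and 6.89% after recovery. The share of members called higher in acute colitis was thus near both backgrounds, and the share called lower was below both. The share called lower after recovery was the farthest above them. Counting genes without regard to a call, 35 of 81 had a negative difference in acute colitis, 40 after 1 cycle, 65 after 2 cycles, 54 after 3 cycles and 61 after recovery.

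The counts of lower genes moved with single arrays and with the array set. The 7 genes lower in acute colitis were 2 without control array A1, 3 without A2, 3 without A5, 4 without L1, and 2 without acute colitis array B3 or B4. The 12 lower after 3 cycles were 6 without array G3. The 15 lower after recovery were 5 without recovery array M1, 8 without M3, 6 without control array A1, 6 without A5 and 7 without L1. With each array centred on its median, 3 members were lower in acute colitis and 7 after recovery. With the array set as a covariate, limma called 0 members lower after 3 cycles and 0 after recovery, and 0 higher in both, where 5 and 3 had a negative difference at an unadjusted p under 0.05 and 0 had a positive one. The standard errors of the members were then 1.47 times as large, at the median, and the median difference of the members was -0.07 after 3 cycles and -0.11 after recovery. In that fit, 10 members were higher and 1 lower in acute colitis.

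**Figure D2:**
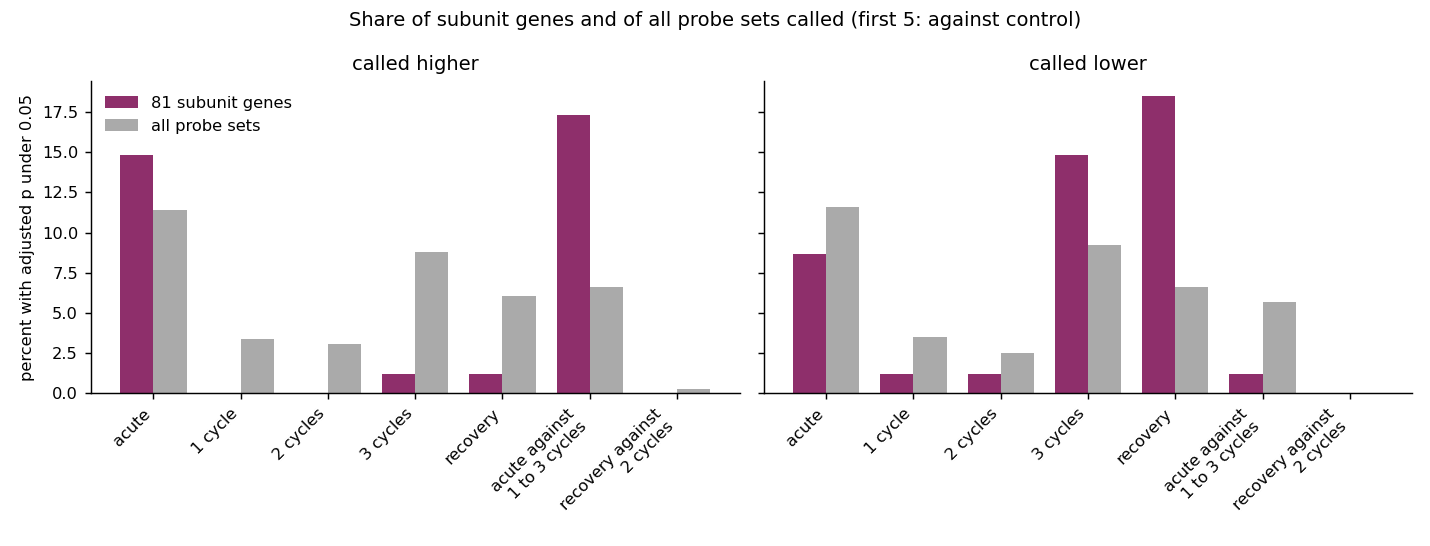
Bars give the percent of the 81 subunit genes and of all 35511 probe sets with an adjusted p under 0.05, higher on the left and lower on the right. The first 5 pairs of bars are DSS groups against control, and the subunit genes stand above all probe sets among those lower after 3 cycles (14.8% against 9.26%) and after recovery (18.5% against 6.61%).

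Sizes were small. The 95% interval of the difference lay within 1 log2 unit, which is 2-fold, for 80 of 81 members in acute colitis, for 81 after 1 cycle, for 81 after 2 cycles, for 80 after 3 cycles and for 80 after recovery, and Cox7a1 was the exception wherever the number was 80. It lay within 0.5 log2 units for 69, 77, 79, 69 and 76 members. With a fold above 2 required as well, 1 member was called in these comparisons, Cox7a1 in acute colitis. Across the 5 comparisons, 47 members were called in none, 23 in 1, 8 in 2 and 2 in 3, and Cox7a1 was called lower in all 5. Lower both after 3 cycles and after recovery were 9 genes: Ndufb9, Ndufs1, Ndufv2, Sdha, Uqcrb, Uqcrh, Cox7a1, Cox7a2 and Atp5pb. These 2 comparisons share the control arrays, and all their DSS arrays are in the high array set, so their calls are not independent. Another 11 genes were higher in acute colitis and called in no other comparison with control: Ndufa10, Ndufa4, Ndufa5, Ndufa8, Ndufb7, Sdhc, Sdhd, Uqcrq, Atp5g3, Atp5mpl and Atp5o. No member was called higher in acute colitis and lower in another group. The shares of all probe sets with the same patterns of calls were not counted, so these counts are descriptions only.

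**Figure D3:**
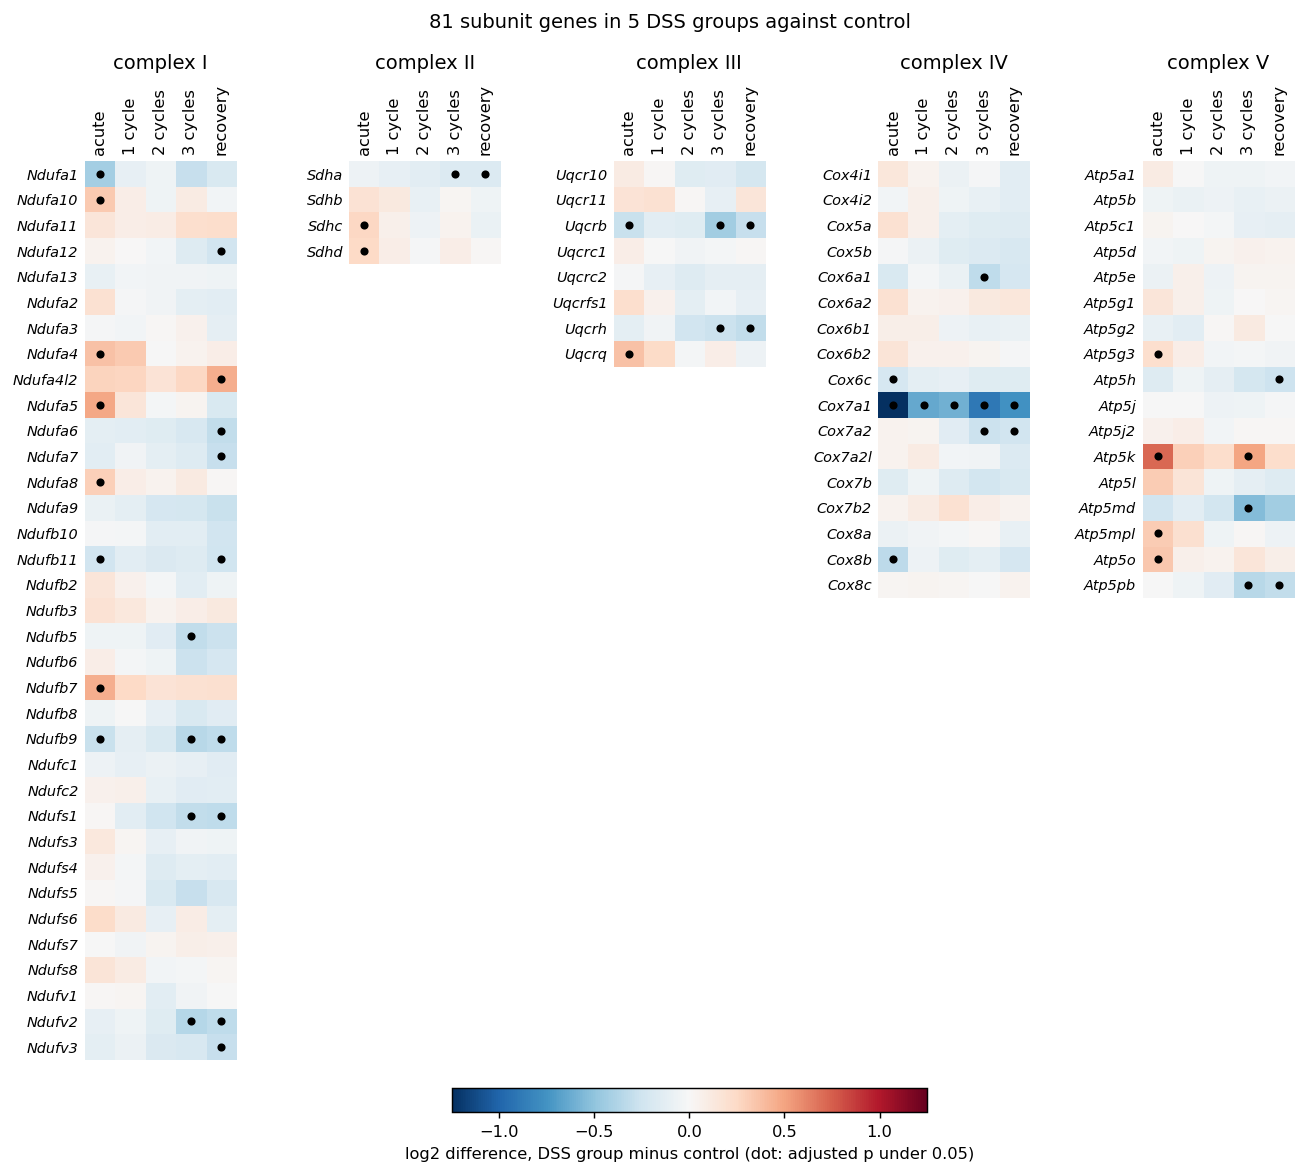
Each row is 1 of the 81 genes, grouped by complex, and each column a DSS group. Colour gives the log2 difference, DSS group minus control, and a dot marks an adjusted p under 0.05. Cox7a1 is the darkest row, with -1.25 in acute colitis, and Atp5k has the highest value, 0.72 in acute colitis.

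In complex I, 5 of 35 genes (14.3%) were higher and 3 (8.57%) lower in acute colitis, beside 11.4% and 11.6% of all probe sets. After 3 cycles 4 (11.4%) were lower, beside 9.26%. After recovery 8 (22.9%) were lower and 1 (2.86%) higher, beside 6.61% and 6.05%. Ndufa5, an accessory subunit of the arm that reaches into the matrix, had log2 values of 7.51, 7.41, 7.50 and 7.74 in acute colitis arrays B2, B3, B4 and C3, against 6.98, 7.08, 7.07, 7.13 and 7.01 in control arrays A1, A2, A5, L1 and L2. All acute colitis arrays were above all control arrays, and the difference was 0.49 (SE 0.08, adjusted p = 5.4e-05). Recovery arrays, at 6.78 to 6.91, lay below every control array, and their mean differed from the control mean by -0.19, which did not pass the test (adjusted p = 0.088). Ndufb7, an accessory subunit on the intermembrane side, averaged 8.28 ± 0.21 in acute colitis (SD, n = 4) and 7.83 ± 0.08 in control mice (SD, n = 5), again without overlap (difference 0.45, adjusted p = 0.00023). Both calls held with each array left out in turn (adjusted p up to 0.00056 for Ndufa5 and 0.0020 for Ndufb7) and with the array set as a covariate. Ndufa10 (0.32) and Ndufa8 (0.30) also rose without overlap. Ndufa4, which mammalian work also assigns to complex IV, rose by 0.37 (adjusted p = 0.024), a call lost without control array A1 (adjusted p = 0.081) or acute colitis array B2 (0.13) or C3 (0.077). Ndufa1, a small membrane subunit, was lower by -0.43 (adjusted p = 0.046), and 15 of the 29 arrays, left out in turn, ended that call (adjusted p up to 0.31).

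After 3 cycles and after recovery, Ndufs1 and Ndufv2 were among the lower genes of complex I. Ndufs1, the largest iron-sulphur subunit, averaged 8.17 ± 0.24 after 3 cycles, 8.16 ± 0.17 after recovery and 8.48 ± 0.08 in control mice (SD, n = 5 each). Its values were 8.51, 8.09, 8.20, 8.18 and 7.85 in arrays F1, F3, F5, G2 and G3 after 3 cycles, against 8.58, 8.44, 8.53, 8.47 and 8.36 in control arrays A1, A2, A5, L1 and L2. F1 lay within the control range, whereas all recovery arrays (7.98 to 8.35) lay below it. The differences were -0.31 after 3 cycles (adjusted p = 0.029) and -0.31 after recovery (adjusted p = 0.037). After 3 cycles the call was lost without A1 (adjusted p = 0.075), A5 (0.064), F3 (0.058) or G3 (0.11), and after recovery without A1 (0.095), A5 (0.079), L1 (0.060), M1 (0.12), M3 (0.099) or N3 (0.050). The Ndufs1 differences with the array set as a covariate were -0.21 (adjusted p = 0.60) and -0.21 (0.65). Ndufv2, also an iron-sulphur subunit, was lower by -0.35 after 3 cycles and -0.32 after recovery, with no overlap of the arrays in both. The iron-sulphur subunits Ndufs7 and Ndufs8 were called in none of the 5 comparisons, with differences of 0.07 and -0.02 after 3 cycles and 0.06 and 0.02 after recovery. Ndufv1, which carries the flavin that accepts electrons from NADH, had differences between -0.13 and 0.02 in the 5 comparisons and was called in none. Ndufb9 was lower in acute colitis (-0.27), after 3 cycles (-0.35) and after recovery (-0.31). Among the genes lower after recovery alone were Ndufa6 (-0.31), Ndufa7 (-0.29), Ndufv3 (-0.29) and Ndufa12 (-0.24).

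In complex II, 2 of 4 genes were higher in acute colitis, beside 11.4% of all probe sets. After 3 cycles and after recovery 1 was lower, beside 9.26% and 6.61%. Sdhc, an anchor that binds ubiquinone together with Sdhd, had log2 values of 10.57, 10.38, 10.51 and 10.58 in acute colitis arrays B2, B3, B4 and C3, against 10.28, 10.29, 10.26, 10.20 and 10.21 in control arrays A1, A2, A5, L1 and L2. The groups did not overlap, and the difference was 0.26 (SE 0.06, adjusted p = 0.0028). It passed with every array left out in turn (adjusted p up to 0.014). Sdhd rose by 0.25 (adjusted p = 0.026), but not without acute colitis array B2 (adjusted p = 0.095), B4 (0.050) or C3 (0.091) or control array L2 (0.060), and with the array set as a covariate it had 0.19 (adjusted p = 0.16). Sdhb, the iron-sulphur subunit, had a difference of 0.18 that did not pass (adjusted p = 0.13). Sdha, the flavoprotein, had -0.07 in acute colitis and was lower by -0.17 after 3 cycles (adjusted p = 0.040) and by -0.17 after recovery (adjusted p = 0.047). Those calls sit at the threshold: 6 of the 29 arrays, left out in turn, ended the first (adjusted p up to 0.14, without G3) and 21 ended the second (up to 0.11, without M1).

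In complex III, 1 of 8 genes (12.5%) was higher and 1 (12.5%) lower in acute colitis, beside 11.4% and 11.6% of all probe sets. After 3 cycles and after recovery 2 (25%) were lower, beside 9.26% and 6.61%. Uqcrb, a small subunit that takes part in ubiquinone binding, had log2 values of 11.72, 11.69, 11.70, 11.61 and 11.35 in arrays F1, F3, F5, G2 and G3 after 3 cycles, against 12.17, 12.09, 12.04, 11.99 and 11.92 in control arrays A1, A2, A5, L1 and L2. Every 3 cycles array was below every control array, with a difference of -0.43 (SE 0.09, adjusted p = 0.0021, and at most 0.011 with 1 array left out). It was also lower in acute colitis (-0.28, adjusted p = 0.038) and after recovery (-0.29, adjusted p = 0.037). In acute colitis the call was lost without A1 (adjusted p = 0.097), A2 (0.071), A5 (0.062), B4 (0.23) or C3 (0.078), and after recovery without A1 (0.10), A2 (0.067), A5 (0.068), L1 (0.052), M1 (0.12), M3 (0.075) or N3 (0.053). Uqcrh, the hinge protein that links the complex to its cytochrome c docking side, averaged 10.41 ± 0.11 after 3 cycles, 10.37 ± 0.08 after recovery and 10.68 ± 0.06 in control mice (SD, n = 5 each). Neither group overlapped the control arrays, with differences of -0.27 (adjusted p = 0.013, and 0.053 without G3) and -0.30 (adjusted p = 0.0080). The Uqcrh differences with the array set as a covariate were -0.12 (adjusted p = 0.70) and -0.16 (0.62), and those of Uqcrb were -0.32 after 3 cycles (0.28) and -0.18 after recovery (0.69). Uqcrq, another small subunit, moved the other way in acute colitis, with 8.09, 7.95, 7.76 and 8.20 in arrays B2, B3, B4 and C3, against 7.53, 7.57, 7.52, 7.79 and 7.76 in control arrays A1, A2, A5, L1 and L2. B4 lay within the control range, and the difference was 0.36 (adjusted p = 0.0056). The core protein Uqcrc1 and the Rieske iron-sulphur protein Uqcrfs1, which carries electrons, were called in none of the 5 comparisons, with differences of -0.05 to 0.08 and -0.12 to 0.21.

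Complex IV held the gene with the largest difference among the members. Cox7a1, the isoform of subunit VIIa known from heart and skeletal muscle, had log2 values of 8.15, 7.53, 7.18 and 7.74 in acute colitis arrays B2, B3, B4 and C3, against 9.17, 8.54, 9.06, 8.95 and 8.80 in control arrays A1, A2, A5, L1 and L2. No acute colitis array reached the lowest control, and the level fell to 42.1% of control (log2 difference -1.25, SE 0.18, adjusted p = 1.3e-05). After 1 cycle the values were 8.19, 8.19, 8.68, 8.20 and 8.06 in arrays J1, J5, K1, K2 and K3, of which K1 alone reached the control range, and the difference was -0.64 (adjusted p = 0.022). After 2 cycles they were 7.91, 8.65, 8.47, 7.92 and 8.57 in arrays D4, D5, E2, E3 and E4, with D5 and E4 in the control range, and the difference was -0.60 (adjusted p = 0.038). After 3 cycles all 5 arrays, 8.01, 8.19, 8.04, 8.04 and 7.74 in F1, F3, F5, G2 and G3, were below the controls, and the level was 53.7% of control (difference -0.90, adjusted p = 0.00096). After recovery the values were 7.88, 8.48, 8.30, 7.91 and 8.17 in arrays M1, M3, M5, N2 and N3, also all below the controls, at 59.3% of the control level (difference -0.75, adjusted p = 0.0054). The group means were ordered acute colitis (7.65), 3 cycles (8.01), recovery (8.15), 1 cycle (8.26), 2 cycles (8.31) and control (8.90). Recovery minus 2 cycles was -0.16, which did not pass the test (adjusted p = 0.85), and the other neighbours in that order were not compared.

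The acute, 3 cycles and recovery calls of Cox7a1 held with every array left out in turn (adjusted p up to 0.00015, 0.0048 and 0.023). After 1 cycle the call was lost without A1 (adjusted p = 0.077), A5 (0.060), J1 (0.052), J5 (0.051) or K3 (0.059), and after 2 cycles without A1 (0.11), A5 (0.095), D4 (0.11), E2 (0.054), E3 (0.11), L1 (0.077) or L2 (0.051). With the array set as a covariate the differences were -1.17 in acute colitis (adjusted p = 0.00023), -0.64 after 1 cycle (0.022), -0.51 after 2 cycles (0.28), -0.75 after 3 cycles (0.16) and -0.60 after recovery (0.34). Smooth muscle markers were lower for 7 of 7 genes in acute colitis, with a median difference of -1.76. They were lower for 1 of 7 after 1 cycle and for 0 of 7 after 2 cycles, 3 cycles and recovery, with medians of -0.35, -0.24, -0.19 and -0.18. At an unadjusted p under 0.05, limma gave 6 of the 7 lower after 1 cycle, 4 after 2 cycles, 1 after 3 cycles and 0 after recovery. Skeletal muscle markers had median differences between -0.04 and 0.06 in the 5 comparisons. Of the 8 markers, 1 was lower in acute colitis, where the lowest difference was -0.84, and 1 was higher after 3 cycles. The part of smooth muscle content in the Cox7a1 values was not tested.

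**Figure D4:**
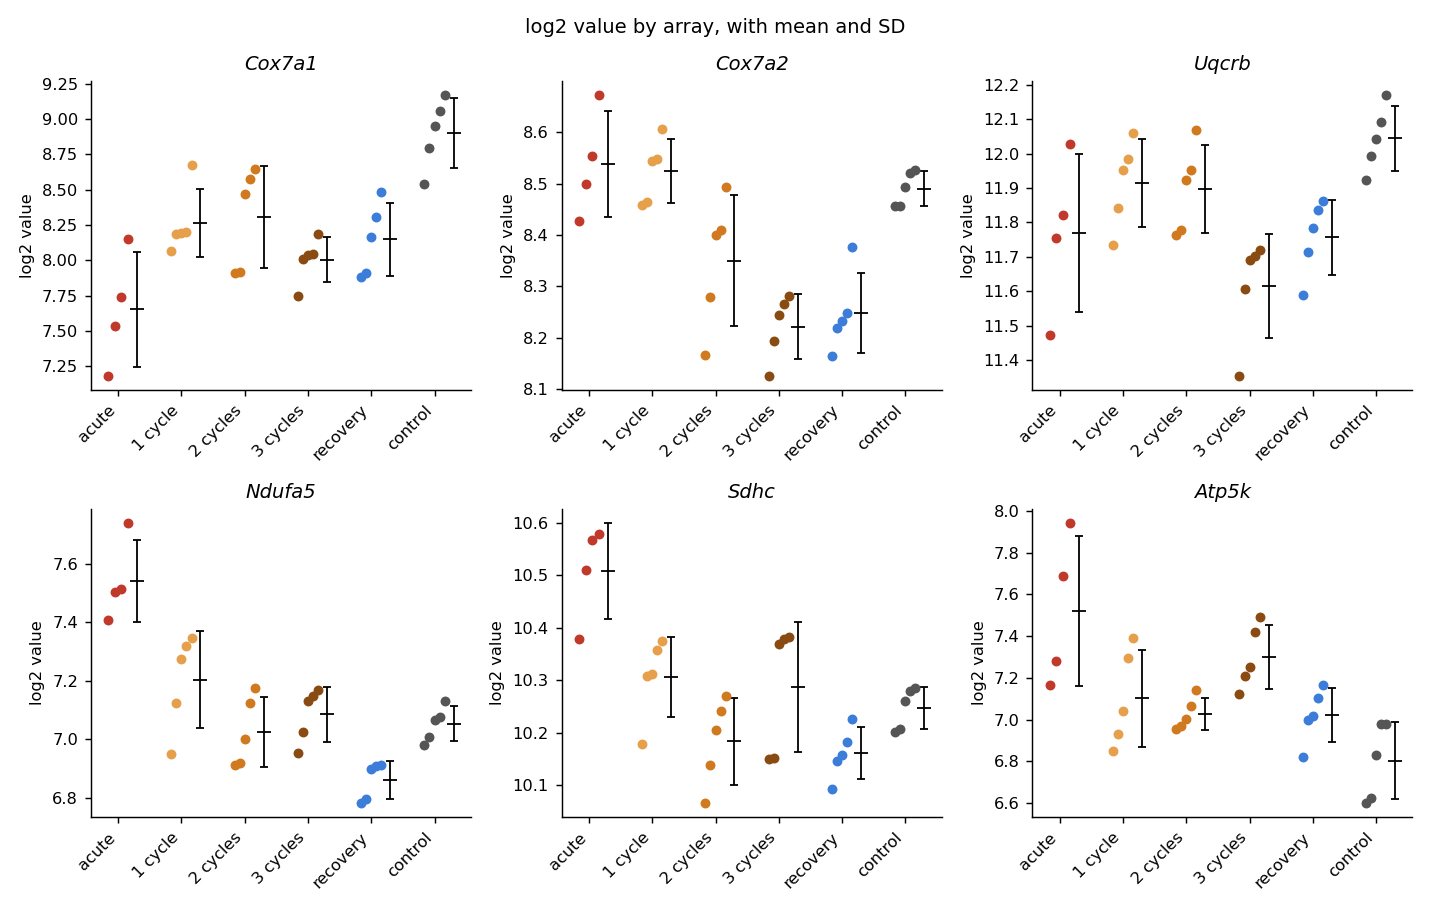
Each point is the log2 value of 1 array for 6 members, with the mean and SD of each group beside the points, from acute colitis on the left to control on the right. Cox7a1 is below the control mean of 8.90 in every DSS array. Cox7a2 lies below every control array after 3 cycles (mean 8.22) and recovery (8.25), and its 2 cycles arrays (8.17 to 8.49) reach from below the controls into their range. Ndufa5, Sdhc and Atp5k are highest in acute colitis.

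The common counterpart Cox7a2, expressed in most tissues, followed another course. It averaged 8.54 ± 0.10 in acute colitis (SD, n = 4) and 8.52 ± 0.06 after 1 cycle (SD, n = 5), against 8.49 ± 0.03 in control mice (SD, n = 5), with differences of 0.05 and 0.03 that did not pass the test. After 2 cycles the values were 8.28, 8.49, 8.41, 8.17 and 8.40 in arrays D4, D5, E2, E3 and E4. Of these, D5 alone reached the control range, and the gene was not called. After 3 cycles the values were 8.28, 8.24, 8.13, 8.27 and 8.19 in arrays F1, F3, F5, G2 and G3, and after recovery 8.23, 8.22, 8.25, 8.38 and 8.17 in M1, M3, M5, N2 and N3, against 8.52, 8.46, 8.53, 8.49 and 8.46 in control arrays A1, A2, A5, L1 and L2. Neither group overlapped the controls, with differences of -0.27 (adjusted p = 0.0031) and -0.24 (adjusted p = 0.0093), and both calls held with each array left out in turn (adjusted p up to 0.011 and 0.027). With the array set as a covariate they were -0.19 (adjusted p = 0.33) and -0.17 (adjusted p = 0.49).

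The other tissue-restricted isoforms moved less. Cox8b, a muscle isoform, was lower in acute colitis by -0.33 (adjusted p = 0.037), with values of 5.17 to 5.48 in acute colitis arrays and 5.52 to 5.84 in control arrays. That call was lost without A1 (adjusted p = 0.089), A2 (0.088), B3 (0.073), C3 (0.13) or L1 (0.057). Its common counterpart Cox8a had differences between -0.09 and 0.01. Ndufa4l2, a paralogue of Ndufa4 known to be induced by low oxygen, averaged 5.73 ± 0.35 after recovery and 5.28 ± 0.12 in control mice (SD, n = 5 each), a difference of 0.45 (adjusted p = 0.034). Arrays M1 (6.08) and M3 (5.98) were the highest and M5 (5.23) lay within the control range. The squamous list mean had the same order over the recovery arrays, at 10.54 in M1, 10.26 in M3, 10.22 in N3, 8.47 in N2 and 5.37 in M5, and its part in the Ndufa4l2 values was not tested. In the 3 cycles group G3 was the highest array for both, with an Ndufa4l2 value of 5.91. Acute colitis array B4 (6.02) and 1 cycle array K2 (5.82) also had high Ndufa4l2 values. Their squamous list means were 5.83 and 5.64, beside 5.45 to 5.59 in control arrays. The recovery call was lost without A1 (adjusted p = 0.074), A5 (0.052), L1 (0.081), L2 (0.057), M1 (0.12), M3 (0.096) or N3 (0.065). The Ndufa4l2 difference with the array set as a covariate was 0.26 (adjusted p = 0.71). Cox4i2, Cox6a2, Cox6b2, Cox7b2 and Cox8c were called in no comparison, with differences between -0.13 and 0.19. The common forms Cox4i1, Cox6b1 and Cox7b were not called either, for Cox7b by the chosen probe set only. Cox6a1 was lower after 3 cycles (-0.32, adjusted p = 0.031, and up to 0.11 with array G3 left out). Other arrays that ended the Cox6a1 call were A1, A2, A5, G2 and L1, at adjusted p of 0.050 to 0.073. The probe sets of Cox8b, Ndufa4l2, Cox6b2, Cox7b2 and Cox8c had mean log2 values under 6 over all arrays, and the other 76 members were above it.

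In complex V, 4 of 17 genes (23.5%) were higher and 0 lower in acute colitis, beside 11.4% and 11.6% of all probe sets. At an unadjusted p under 0.05, 0 were lower there as well. Atp5k, the e subunit at the dimer interface of the membrane part, had log2 values of 7.28, 7.17, 7.69 and 7.94 in acute colitis arrays B2, B3, B4 and C3, against 6.60, 6.98, 6.62, 6.98 and 6.83 in control arrays A1, A2, A5, L1 and L2. Every acute colitis array was above every control, and the level was 164.3% of control (difference 0.72, SE 0.13, adjusted p = 0.00021). After 3 cycles it was 7.49, 7.12, 7.42, 7.21 and 7.25 in arrays F1, F3, F5, G2 and G3, also above every control (difference 0.50, adjusted p = 0.0071). Both calls held with each array left out in turn (adjusted p up to 0.0020 and 0.026). With the array set as a covariate the differences were 0.56 (adjusted p = 0.0039) and 0.19 (adjusted p = 0.71). Atp5o, the subunit that joins the stalk to the catalytic head, averaged 9.26 ± 0.19 in acute colitis (SD, n = 4) and 8.92 ± 0.06 in control mice (SD, n = 5), a difference of 0.34 (adjusted p = 0.0064, and 0.072 with the array set as a covariate). Atp5g3, which encodes the ring-forming c subunit, rose by 0.21 and Atp5mpl by 0.32.

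After 3 cycles, Atp5md (-0.54, adjusted p = 0.016) and Atp5pb (-0.34, adjusted p = 0.011) were lower, and after recovery Atp5pb (-0.31, adjusted p = 0.030) and Atp5h (-0.26). Atp5pb and Atp5h encode parts of the peripheral stalk, and Atp5md a small membrane subunit. The Atp5pb values after 3 cycles were 10.05, 9.97, 10.04, 10.04 and 9.70 in arrays F1, F3, F5, G2 and G3, against 10.38, 10.31, 10.39, 10.26 and 10.16 in control arrays A1, A2, A5, L1 and L2, with no overlap. The Atp5md call was lost without G3 (adjusted p = 0.054), and the recovery call of Atp5pb without A1 (0.076), A5 (0.074), M1 (0.10) or M3 (0.060). Fitted with the array set as a covariate, Atp5md was -0.25 after 3 cycles (adjusted p = 0.71), and Atp5pb was -0.29 after 3 cycles (0.35) and -0.25 after recovery (0.52). The probe set of Atp5pb that was not chosen had differences of 0.06 after 3 cycles and 0.06 after recovery, so its probe sets disagree. The catalytic subunits Atp5a1 and Atp5b were called in no comparison, with differences of -0.06 to 0.11 and -0.09 to -0.05. Of the 16 members with several probe sets, 0 had calls in opposite directions within the same comparison. Across comparisons Atp5pb did: its other probe set was called in 1 comparison with control, and its differences were positive in all of them (0.05 to 0.20). With all probe sets of a gene averaged, Atp5pb had -0.14 after 3 cycles (adjusted p = 0.18) and -0.12 after recovery (0.28). The other probe set of Cox7b was lower by -0.49 after 3 cycles and -0.45 after recovery, where the chosen one had -0.23 and -0.20 and was not called.

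Acute colitis was also compared with the mean of the 1, 2 and 3 cycles groups, which does not involve control arrays. Of the 81 genes, 14 (17.3%) were higher and 1 lower in acute colitis, beside 6.6% and 5.66% of all probe sets. The median difference was 0.10, beside 0.02 over all genes. The count of 14 was 5 without acute colitis array C3 and 8 without B2, and 15 with the array set as a covariate. Complex I gave 5 of the higher genes, complex II 1, complex III 1, complex IV 2 and complex V 5. Ndufa5 had 7.41 to 7.74 in acute colitis arrays and 6.91 to 7.35 in the 15 arrays of the chronic groups, with no overlap and a difference of 0.44 (SE 0.07, adjusted p = 6.9e-05). Ndufa10 (0.28), Sdhc (0.25), Cox5a (0.26), which helps to hold the catalytic core of complex IV, and Atp5mpl (0.27) were also higher. Cox7a1 was the gene that was lower (-0.54, adjusted p = 0.019), a call lost without B3 (adjusted p = 0.067) or B4 (0.15). Cox7a2 was higher (0.17, adjusted p = 0.030), a call lost without B2 (0.16) or C3 (0.091). The smooth muscle list was lower for 7 of 7 genes in this comparison and the neutrophil list higher for 6 of 7.

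Recovery was compared with 2 cycles to follow the effect of the further weeks of normal water. No subunit gene was called: 0 were higher and 0 lower with limma, beside 0.259% and 0.0197% of all probe sets, and at an unadjusted p under 0.05 0 were higher and 4 lower. The count stayed at 0 with each array left out in turn. The median difference was -0.04, beside 0.00 over all genes, and the 95% interval lay within 0.5 log2 units for 78 of 81 genes, the exceptions being Ndufa4l2, Cox7a1 and Atp5md.

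Mitochondrially encoded subunits were followed through 4 probe sets annotated with their symbols, 2 each for COX2 and ND3. Both COX2 probe sets were lower after 3 cycles, by -0.36 (adjusted p = 0.025) and -0.32 (adjusted p = 0.026), and after recovery, by -0.36 (adjusted p = 0.036) and -0.33 (adjusted p = 0.030). The ND3 probe sets had differences of -0.32 and -0.26 after 3 cycles and -0.33 and -0.32 after recovery and were not called. In these groups every array is in the high array set and no control array is. The COX2 calls were not followed with the set as a covariate or with arrays left out.

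Other lists of the same pathway were counted as well, beside 11.4% of all probe sets higher and 11.6% lower in acute colitis. Genes of the mitochondrial ribosome, which translates the mitochondrially encoded subunits, were higher in acute colitis for 36 of 77 (46.8%) and lower for 1 (1.3%). Their median difference was 0.23, while 12 of 81 subunit genes (14.8%) were higher. The list means of the mitochondrial ribosome were 7.63 to 7.86 in acute colitis arrays and 7.48 to 7.60 in control arrays, with no overlap. Of 42 assembly factors, which help to build the complexes, 6 (14.3%) were higher and 2 (4.76%) lower. Of 15 genes of glycolysis and lactate handling, 9 (60%) were higher and 2 (13.3%) lower. The lactate exporter Slc16a3 rose by 1.23 and hexokinase Hk2 by 0.93, whereas Pfkm, the muscle form of phosphofructokinase, fell by 0.56 and Ldhb fell by 0.45. Of 15 genes of the citrate cycle and pyruvate dehydrogenase, 1 (6.67%) was higher and 2 (13.3%) lower in acute colitis. After 3 cycles 5 (33.3%) were lower and after recovery 3 (20%), beside 9.26% and 6.61% of all probe sets. Idh3a (-0.43) and Sucla2 (-0.43) were among those lower after 3 cycles. These lists were not tested as sets.

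Among 13 regulators of mitochondrial gene expression, 2 (15.4%) were higher and 4 (30.8%) lower in acute colitis, beside 11.4% and 11.6% of all probe sets. After 3 cycles 5 (38.5%) were lower and 1 (7.69%) higher, beside 9.26% and 8.81%. After recovery 2 (15.4%) were lower, beside 6.61%. Ppargc1a, the coactivator known to drive mitochondrial gene expression, was lower in all 5 DSS groups, by -1.82 in acute colitis (adjusted p = 3.3e-06), -1.11 after 1 cycle (0.0027), -0.91 after 2 cycles (0.013), -1.08 after 3 cycles (0.0018) and -1.16 after recovery (0.0015). Its partner among nuclear receptors Esrrg was lower by -1.16 in acute colitis and by -0.59 both after 3 cycles and after recovery. The related coactivator Pprc1 was higher in acute colitis (0.78), after 2 cycles (0.40) and after 3 cycles (0.36), and Esrra was higher in acute colitis (0.40). Gabpa, whose product binds the ETS core shown in capitals above, was lower after 3 cycles (-0.34, adjusted p = 0.0039). The calls of regulators and of citrate cycle genes were also not followed with the array set as a covariate or with arrays left out. After 3 cycles and after recovery they cannot be told apart from the array set.

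**Figure D5:**
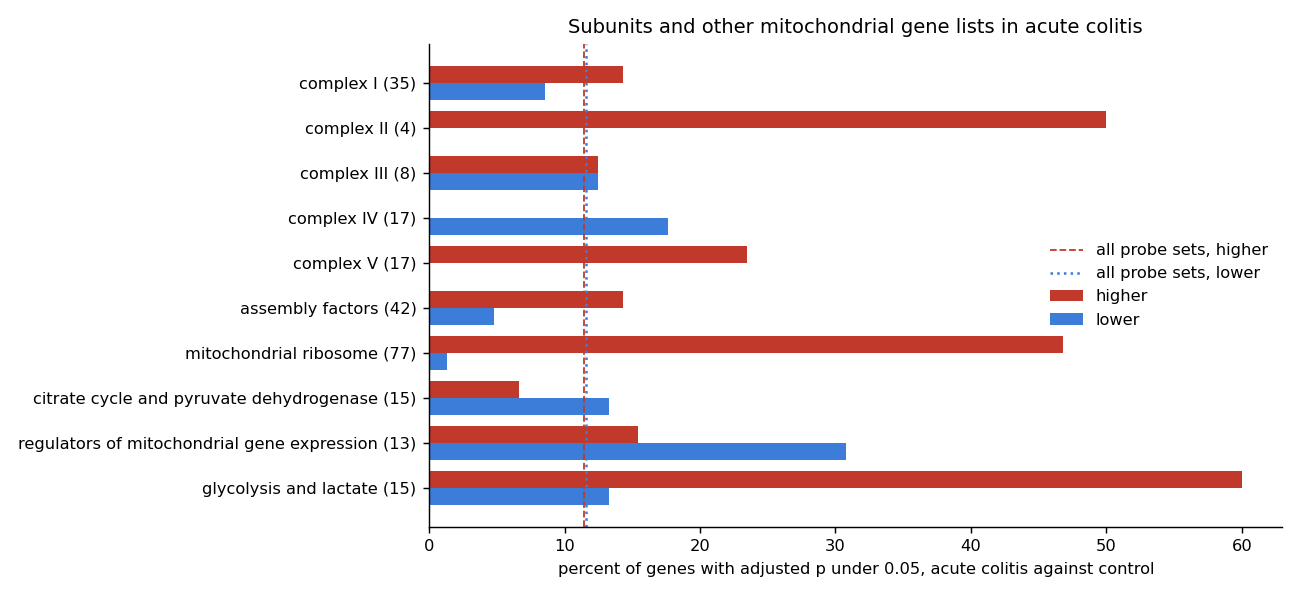
Bars give the percent of genes of each list that were higher or lower in acute colitis than in control at an adjusted p under 0.05, with the number of genes in brackets, and the vertical lines give the same shares over all probe sets (11.4% and 11.6%). The mitochondrial ribosome (36 of 77 higher) and glycolysis (9 of 15 higher) lie far to the right of the lines, whereas complexes I and III lie close to them and complex IV has 0 higher and 3 lower.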

How the data were processed

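Total RNA of mouse distal colon was hybridised to Affymetrix Mouse Gene 1.0 ST arrays, 1 array per mouse. The deposited values are log2 expression values that the authors made with RMA in R 2.12.2, per the labels and the study's methods, and RMA had already corrected background and put the arrays on 1 scale. All 29 columns were mapped by their labels and 0 were left out. The 35511 probe sets were fitted in R 4.3.3 with limma 3.58.1, in 1 linear model over all 6 groups, and Benjamini-Hochberg adjustment covered the whole table in each of 7 comparisons. Gene symbols came from the platform annotation, in which 21789 probe sets have 1 symbol, 1621 several and 12101 none. All 81 members matched RefSeq by Entrez ID. The fit was tested on simulated data with 200 changed probe sets. Arrays have no read depth, so the number of arrays limits the precision. The labels do not say whether mice shared a cage, and p-values measure the spread between these mice.

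The members and lists were chosen with earlier results of these data known. Genes named in full were the tissue-restricted isoforms with their common counterparts, 2 fixed subunits per complex, and per complex up to 4 called members with the largest difference against control. Other genes named were chosen after their values were seen. Alternatives covered the samples in the fit, array weights, the prior, dim probe sets (mean log2 under 6), unnamed probe sets, scaling, the array set, the choice of probe sets and members, a fold limit of 2, and each array left out in turn. Promoter motifs were sought as exact letters. An additional acute colitis array was not analysed here.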

Additional observations from a re-analysis of the deposited data

Results flagged for a closer look

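In 9 of 252 groups of arrays tested, 1 array stood apart from the rest of its group by Dixon's criterion, which chance alone does in about 1 in 20 groups. Array K1 of the 1 cycle group did so 4 times. Its complex II median was -0.0731, with the others at 0.07 to 0.13, and its complex IV median was -0.0885, with the others at 0.01 to 0.04. Its Cox7a1 value was 8.68 (others 8.06 to 8.20) and its Atp5a1 value 11.26 (others 11.38 to 11.40). In acute colitis, array B4 had an Ndufa4l2 value of 6.02 (others 5.34 to 5.44). After 3 cycles, array G3 had an Atp5pb value of 9.70 (others 9.97 to 10.05), and after recovery M1 had a Uqcrc1 value of 10.42 (others 10.55 to 10.57). Among controls, L1 had a Uqcrh value of 10.77 (others 10.63 to 10.67) and A2 a Cox4i2 value of 6.64 (others 6.41 to 6.47).

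Among the genes named in full, 9 differed between acute colitis and the mean of the 1, 2 and 3 cycles groups in limma's test of that difference. Of all probe sets, 6.6% were higher and 5.66% lower in that comparison. Several of the 9 were named in full for a large difference against control, which came from the same acute colitis arrays. The count is therefore not an independent result. Cox7a1 was lower in acute colitis by -0.54. Ndufa5 (0.44), Atp5k (0.38), Uqcrq (0.26), Cox5a (0.26), Atp5o (0.25), Ndufb7 (0.25), Sdhc (0.25) and Cox7a2 (0.17) were higher in acute colitis. The adjusted p-values ran from 6.9e-05 for Ndufa5 to 0.030 for Cox7a2.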

How the results depend on the processing

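No paired analysis was possible because no letter and digit of the labels is shared between groups. Under alternatives other than leaving out an array, 121 of the counts stayed within 1.5 times their reported value and 55 did not. By the SD of the array medians in the tested group, 484 group or complex medians moved by less and 2 by more. That limit is wide: for complex I in acute colitis the SD was 0.16 and the median difference 0.02. A median could thus change sign and still count as unmoved, so the 484 say little about stability. With a fit of the compared groups alone, 1 member was lower in acute colitis, 1 higher after 1 cycle, 2 lower after 2 cycles, 2 higher after 3 cycles, 2 higher after recovery and 6 higher in acute colitis than in the chronic groups. With array weights (0.320 to 1.84) these were 1 lower in acute colitis, 4 higher after 1 cycle, 2 lower after 2 cycles, 2 higher after 3 cycles, 3 higher after recovery and 0 lower in acute colitis than in the chronic groups. A trended and robust prior gave 1 higher after 1 cycle and 2 lower after 2 cycles. Leaving out dim probe sets, and leaving out those without a single symbol, each gave 2 higher after 1 cycle, 2 lower after 2 cycles and 2 higher after 3 cycles. A repeated quantile normalization gave 3 higher after 1 cycle, 2 lower after 2 cycles, 3 higher after 3 cycles and 3 higher after recovery. Arrays centred on their median gave 3 lower in acute colitis, 0 lower after 2 cycles, 7 lower after recovery and 9 higher in acute colitis than in the chronic groups. With the letter of the label as a random block (correlation -0.07) there were 3 higher after 1 cycle, 2 lower after 2 cycles, 2 higher after 3 cycles and 2 higher after recovery. Averaging all probe sets of a gene gave a complex IV median of -0.0257 in acute colitis. With the array set as a covariate there were 1 lower in acute colitis, 0 lower after 2 cycles, and 0 higher and 0 lower both after 3 cycles and after recovery. Within the low arrays, 4 were higher and 1 lower in acute colitis and 0 lower after 2 cycles. Leaving out the tissue-restricted isoforms kept 73 members, accessory subunits among them. Of these, 0 were lower after 1 cycle, 0 lower after 2 cycles and 0 higher after recovery. In acute colitis against the chronic groups 0 were lower, and the complex IV median was 0.0665. With a fold above 2 required, 0 were higher and 1 lower in acute colitis, 0 lower after 1 cycle, 0 lower after 2 cycles, and 0 in either direction after 3 cycles, after recovery and between acute colitis and the chronic groups. The cause of these shifts was not tested.

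With each array left out in turn, the counts in acute colitis ran from 9 to 15 higher and from 2 to 10 lower, those after 1 cycle from 0 to 3 higher and 0 to 1 lower, and those after 2 cycles from 0 to 2 lower. After 3 cycles they ran from 1 to 2 higher and 6 to 17 lower, after recovery from 0 to 2 higher and 5 to 21 lower, and for acute colitis against the chronic groups from 5 to 19 higher and 0 to 1 lower. The complex IV median of that last comparison ran from -0.00942 (without K1) to 0.0649 (without B4). For the calls of genes named in full, 0 changed direction under any alternative. The array set as a covariate ended 24 of 41 such calls, the fit of the compared groups 14, centring 11 and array weights 5. Within the low arrays, where fewer such calls could be run, 4 held and 10 were lost.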
